A study of Mus musculus with 6 samples.

Results

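The Egr, Fos and Jun genes encode transcription factors of the early response, the set of genes that a cell switches on within minutes of a growth factor or a stress, without new protein synthesis. They were taken as the rows with the gene symbols Egr1, Egr2, Egr3, Fos, Fosb, Fosl1, Fosl2, Jun, Junb and Jund, which are 10 of the 25701 genes measured. PolyA RNA had been sequenced from CP cells (cardiac progenitors) derived from 46C, a mouse ESC line, in 6 libraries. The 3 libraries labelled Zhx1-KO came from 46C cells in which guide RNAs at the transcription start and stop sites of Zhx1 had been used with Cas9 to delete this zinc finger and homeobox gene, and the 3 libraries of 46C-Ctrl came from 46C cells without the deletion. The sources used here do not give the number of edited clones behind the libraries. All ESCs were grown on feeder cells with LIF, then differentiated in suspension with BMP4, Activin A and VEGF and, once attached, with VEGF, FGF10 and bFGF. The series was designed to find genes that depend on Zhx1 and its partner hnRNPA1 at the CP stage, and the comparison below asks which Egr, Fos and Jun transcripts differed in the libraries labelled Zhx1-KO.

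The Egr proteins are zinc finger factors that bind GC-rich DNA. Fos proteins bind DNA only as dimers with a Jun protein, whereas Jun proteins can also pair with each other, and these dimers form AP-1. The genes are induced mainly through the ERK, JNK and p38 kinase cascades, which act on the serum response factor SRF with its ternary complex partners and on CREB-type factors, and the resulting proteins feed back on the cascades and switch on later genes of growth, migration and matrix turnover.

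The promoter sequences are shown because some of the sites through which these cascades act on the early-response genes are short motifs close to the transcription start. RefSeq windows of GRCm38.p6, from 250 bases before to 50 bases after a start, were matched for 7 of the 10 genes (11 windows). Egr1, Egr3 and Fosl1 had no entry. Both strands were searched for the CArG box, which SRF binds, the cyclic AMP response element TGACGTCA, its shorter form TGACG, the AP-1 site TGACTCA and the Egr site GCGTGGGCG. TGACG is contained in TGACGTCA, so a window with the longer motif counts for both. TGACG was found in the windows of Egr2, Fos, Fosb and Junb, against 20.8% of all 32851 windows, and the CArG box was found in those of Egr2, against 1.63% of all windows. TGACGTCA, TGACTCA and GCGTGGGCG occur in 1.79%, 5.2% and 0.612% of all windows and were in none of the members' windows. The lines below give 30 bases around a match, 5′ to 3′ on the gene's strand, with the motif in capitals. For Fos, Fosb and Junb they hold TGACG and for Egr2 the CArG box. A match describes the letters only. Bases outside these windows were not searched, so a gene without a match may still have the site further away.
Fos (chr12:85473812-85473841, plus strand): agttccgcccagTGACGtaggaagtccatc
Fos (chr12:85473749-85473778, plus strand): ggggcgtagagtTGACGacagagcgcccgc
Junb (chr8:84978837-84978866, minus strand): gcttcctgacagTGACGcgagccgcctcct
Fosb (chr7:19310088-19310117, minus strand): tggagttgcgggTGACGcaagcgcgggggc
Egr2 (chr10:67537787-67537816, plus strand): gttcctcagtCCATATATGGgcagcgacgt
Egr2 (chr10:67537484-67537513, plus strand): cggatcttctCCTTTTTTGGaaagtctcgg

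The motif starts 66 and 129 bases before the start of Fos, 106 before that of Junb and 60 before that of Fosb. Egr2 has 5 windows, from separate starts, and each of its CArG boxes begins 72 bases before 1 of these starts.

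The values are normalized counts, counts per gene after division by a factor that the authors set for each library. With the smallest value of each library taken as 1 count, the libraries summed to between 13769967 and 15940874 counts before that division. Whether that smallest value stands for 1 read was not settled for every library. A fold change is the difference of the means of log2(value + 1), labelled Zhx1-KO over 46C-Ctrl, a scale that makes changes of low genes look smaller. The 15372 genes whose mean reached 10 were tested with limma, and those with an adjusted p under 0.05 were called. By this rule 26.4% of the genes tested were called lower in the libraries labelled Zhx1-KO and 25.6% higher, so a single call is common here. The replicate 46C-Ctrl 2 stood apart, with a chi-square per gene of 17.3 and 18.7 against the other libraries of its group, which differed from each other by 5.88 (6.55 to 8.11 among the libraries labelled Zhx1-KO), and with 2.77% of its values from mitochondrial genes, against 1.72% to 1.87% elsewhere. Zhx1 itself had 225, 325 and 308 normalized counts in the libraries labelled Zhx1-KO, against 460, 181 and 457 in 46C-Ctrl, which is -0.25 as a log2 fold change (standard error, SE, 0.35, limma adjusted p = 0.579). The groups overlapped, and without 46C-Ctrl 2 the log2 fold change was -0.70 (limma adjusted p = 0.0113), so this transcript alone does not settle the labels. Zhx1 also overlaps Gm29394, a protein-coding gene, on the same strand, where the strand of a read cannot tell the genes apart. All 6 CP markers had values above 0 in every library, and 5 of them were called lower in the libraries labelled Zhx1-KO. Among these 5, Tbx5 had only 3.02, 1.01 and 1.76 in the libraries labelled Zhx1-KO. It reached a mean of 10 through 46C-Ctrl alone, so it could be called only lower. The study describes its data as 3 independent experiments, and no other source used here ties the libraries to separate cultures. The p-values therefore cover only how far these libraries spread, and that spread may be technical.

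Of the 10 genes, 7 passed the filter on low values (Egr1, Egr3, Fos, Fosl2, Jun, Junb and Jund), and each of these was called lower in the libraries labelled Zhx1-KO, with no overlap between the groups. For comparison, 30.4% of all genes tested had every library labelled Zhx1-KO below every 46C-Ctrl library. Egr3 passed the filter only through its 46C-Ctrl values, so it could be called in no other direction, and it is described by its values. Log2 fold changes of the other 6 ran from -2.28 for Fos to -0.49 for Jund, where the median of all genes tested was 0.01. Egr2, Fosb and Fosl1 had means under 10, with at least 1 library at 0 in each group. An exact two-sided permutation test over the 6 libraries gave p = 0.1 for each tested member, the smallest value that 3 libraries against 3 allow. In bulk RNA, fewer cells of a type that express a gene and less RNA per cell cannot be told apart.

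**Figure D1:**
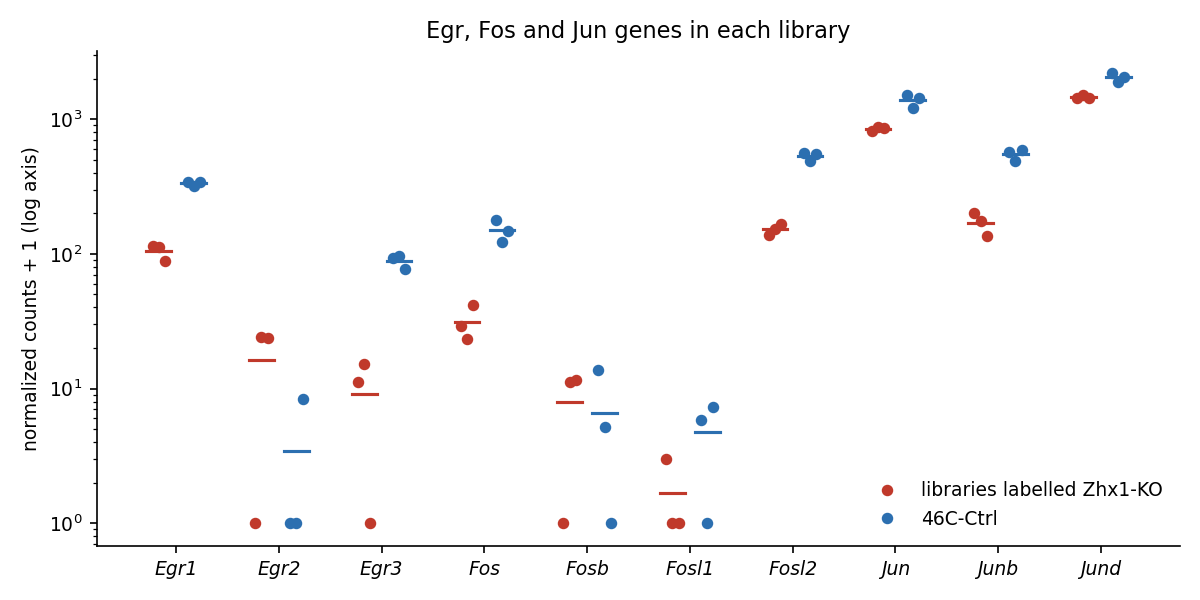
Normalized counts plus 1 (log axis) of the 10 Egr, Fos and Jun genes, with 1 point per library and a bar at the mean of each group of 3 (libraries labelled Zhx1-KO in red, 46C-Ctrl in blue); a point at the bottom is a value of 0. The groups are apart for Egr1, Egr3, Fos, Fosl2, Jun, Junb and Jund and overlap for Egr2, Fosb and Fosl1.

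Among the Egr genes, Egr1 and Egr3 were lower, and Egr2 was seen mainly in 2 of the libraries labelled Zhx1-KO. Egr1, the member of this family that most cell types induce with growth factors, lies on chromosome 18 of GRCm38 from 34859823 to 34864984 on the plus strand. It had 113, 111 and 88 normalized counts in the libraries labelled Zhx1-KO (mean 104 ± 13.9 SD, n = 3), against 341, 321 and 340 in 46C-Ctrl (mean 334 ± 11.3 SD, n = 3). The lowest 46C-Ctrl library was well above the highest library labelled Zhx1-KO. The log2 fold change was -1.68 (SE 0.13, 95% interval -1.98 to -1.38, limma adjusted p = 3.6e-05), which is a 3.21-fold lower level on this scale.

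Egr3, a relative of Egr1 known for its part in muscle spindles and lymphocytes, lies on chromosome 14 from 70077203 to 70082614 on the plus strand. Its values were 10.1, 14.2 and 0 in the libraries labelled Zhx1-KO, against 91.7, 96.3 and 75.9 in 46C-Ctrl. All 3 values of 46C-Ctrl were above all 3 of the other group, and the gene passed the filter through 46C-Ctrl alone. A 0 can be a failed estimate in these data, since 27 genes in the libraries labelled Zhx1-KO and 40 in 46C-Ctrl were at 0 in some library while another replicate had 100 or more. The log2 fold change of Egr3 was -4.00 (SE 0.94, 95% interval -6.18 to -1.82, limma adjusted p = 0.00864). Its size rests on that 0: without replicate 3 of the libraries labelled Zhx1-KO it was -2.77 (adjusted p = 0.000483), and with a pseudocount of 10 it was -2.53. Over 13 alternatives it ran from -4.73 to -2.53, with adjusted p-values from 0.000343 to 0.0284 from limma.

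Egr2, the Egr member of the hindbrain and of myelinating Schwann cells, lies on chromosome 10 from 67535475 to 67542188 on the plus strand. It was listed at 0, 23.3 and 22.9 in the libraries labelled Zhx1-KO, against 0, 0 and 7.38 in 46C-Ctrl. The groups overlapped at 0, and the mean was too low for the test. With no filter the log2 fold change was 2.04 (SE 1.32, limma adjusted p = 0.298), the opposite sign to Egr1 and Egr3. Without replicate 1 of the libraries labelled Zhx1-KO, Egr2 passed both the filter and the test, with a log2 fold change of 3.57 (SE 1.09, limma adjusted p = 0.035). Leaving out 46C-Ctrl 1 or 46C-Ctrl 2 gave 1.53 each time, with adjusted p-values of 0.483 and 0.466, so a call for Egr2 hung on a single library.

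In the Fos family, Fos and Fosl2 both fell, and Fosb and Fosl1 were low in both groups. Fos, the member with the fastest and most transient induction in cultured cells, lies on chromosome 12 from 85473890 to 85477273 on the plus strand, just after the TGACG matches shown above. It had 28.2, 22.2 and 40.5 normalized counts in the libraries labelled Zhx1-KO (mean 30.3 ± 9.3 SD, n = 3), against 177, 122 and 147 in 46C-Ctrl (mean 148 ± 27.2 SD, n = 3). The groups did not overlap, although the libraries within each group spread more than for Egr1. Its log2 fold change of -2.28 (SE 0.26, 95% interval -2.89 to -1.67, limma adjusted p = 0.000259) is a 4.86-fold lower level.

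Fosl2, which encodes Fra-2, a Fos protein without the strong activation domain of Fos, lies on chromosome 5 from 32135801 to 32157842 on the plus strand. It had 137, 153 and 165 normalized counts in the libraries labelled Zhx1-KO (mean 152 ± 14.2 SD, n = 3), against 558, 486 and 549 in 46C-Ctrl (mean 531 ± 39.5 SD, n = 3). These values were tight within both groups. Fosl2 had the smallest adjusted p of the members, 1.1e-05 from limma, with a log2 fold change of -1.80 (SE 0.11, 95% interval -2.05 to -1.55).

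Fosb, which is best known from neurons (chromosome 7, 19302696 to 19310051, minus strand), was listed at 0, 10.1 and 10.6 in the libraries labelled Zhx1-KO and at 12.7, 4.14 and 0 in 46C-Ctrl. Fosl1, which encodes Fra-1 (chromosome 19, 5447547 to 5455946, plus strand), was listed at 2.02, 0 and 0 in the libraries labelled Zhx1-KO and at 4.88, 0 and 6.33 in 46C-Ctrl. Both genes overlapped between the groups and failed the filter. With no filter the log2 fold changes were 0.29 for Fosb (limma adjusted p = 0.889) and -1.28 for Fosl1 (SE 0.85, adjusted p = 0.31), and differences of these genes were not detectable at this depth.

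The 3 Jun genes, the most abundant members per kb of exon, all fell, by unequal amounts. Junb, a Jun protein that can dampen as well as share the activity of Jun, lies on chromosome 8 from 84974484 to 84978718 on the minus strand. It had 201, 174 and 135 normalized counts in the libraries labelled Zhx1-KO (mean 170 ± 33.1 SD, n = 3), against 566, 491 and 592 in 46C-Ctrl (mean 549 ± 52.4 SD, n = 3). No library of one group came near the other. The log2 fold change was -1.70 (SE 0.16, 95% interval -2.06 to -1.34, limma adjusted p = 7.9e-05).

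Jun, the main target of the JNK kinases, lies on chromosome 4 from 95049034 to 95052222 on the minus strand. It had 820, 873 and 856 normalized counts in the libraries labelled Zhx1-KO (mean 850 ± 26.7 SD, n = 3), against 1503, 1207 and 1448 in 46C-Ctrl (mean 1386 ± 157 SD, n = 3). The lowest 46C-Ctrl value, that of replicate 2, was still above the highest of the libraries labelled Zhx1-KO. The log2 fold change was -0.70 (SE 0.09, 95% interval -0.90 to -0.49, limma adjusted p = 0.000409).

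Jund, the Jun gene that most cells express steadily and induce least, lies on chromosome 8 from 70698949 to 70700616 on the plus strand. It had 1444, 1501 and 1428 normalized counts in the libraries labelled Zhx1-KO (mean 1458 ± 38.3 SD, n = 3), against 2196, 1887 and 2052 in 46C-Ctrl (mean 2045 ± 155 SD, n = 3). Here too the groups were apart, with the smallest fold change of the tested members. The log2 fold change was -0.49 (SE 0.07, 95% interval -0.64 to -0.33, limma adjusted p = 0.000575). Jun, Junb and Jund, and likewise Fosl1, overlap genes on the opposite strand, and the authors' mapping used the strand of the library.

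**Figure D2:**
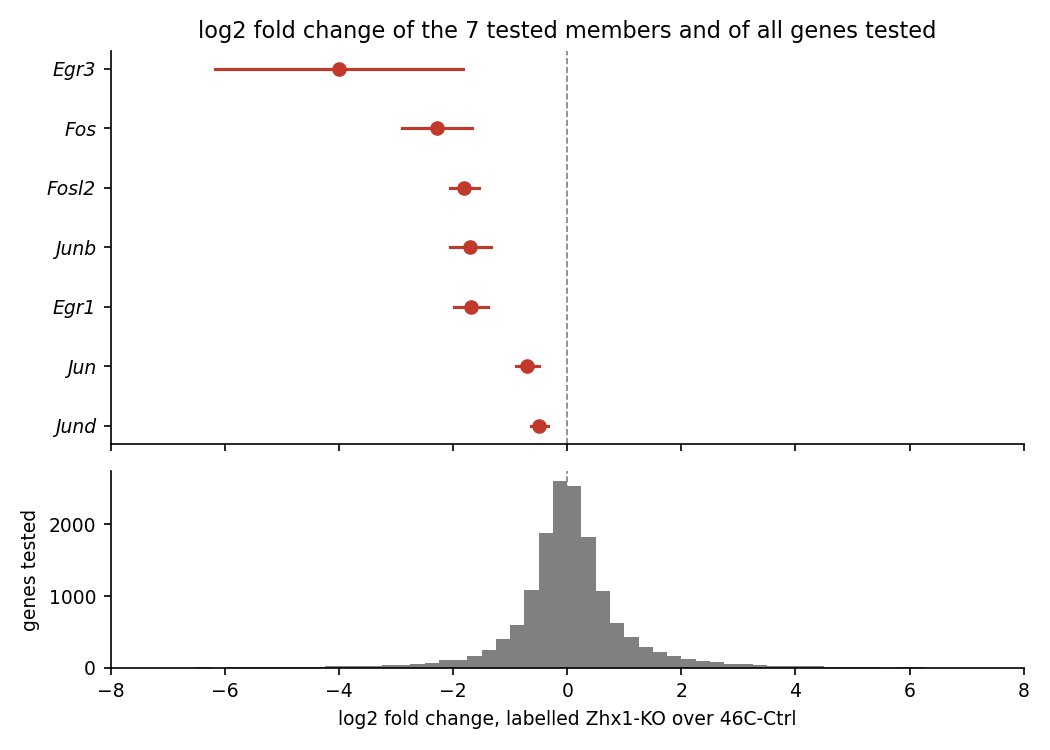
Above, log2 fold change (labelled Zhx1-KO over 46C-Ctrl) of the 7 tested members, with points for the estimate and lines for the 95% interval from limma; below, a histogram of the same quantity over all 15372 genes tested, with values beyond 8 put in the end bins. All 7 intervals lie below 0, from Egr3 at -4.00, which passed the filter only through 46C-Ctrl, to Jund at -0.49.

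Each of the 7 members stayed lower and called in every alternative fit that tested it, 14 for each of 6 members and 13 for Egr3. The log2 fold changes ran from -1.74 to -1.57 for Egr1, -2.50 to -1.98 for Fos and -1.87 to -1.73 for Fosl2. For the Jun genes they ran from -1.83 to -1.55 for Junb, -0.80 to -0.60 for Jun and -0.54 to -0.39 for Jund. Without 46C-Ctrl 2, the library that stood apart, they were -1.71 for Egr1, -3.94 for Egr3, -2.41 for Fos, -1.86 for Fosl2, -1.78 for Junb, -0.80 for Jun and -0.54 for Jund. A change of at least 2-fold was seen for 5 of them (Egr1, Egr3, Fos, Fosl2 and Junb), and Jun and Jund stayed below it. Of these 5, Egr3 had passed the filter only through 46C-Ctrl. Over all 15372 genes tested, 1207 were called lower with a change of at least 2-fold.

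Per kb of exon in the GENCODE annotation, which allows levels to be set against each other, Jund was the highest member in both groups, at 874 normalized counts per kb in the libraries labelled Zhx1-KO and 1226 in 46C-Ctrl. Jun followed with 266 in the libraries labelled Zhx1-KO and 435 in 46C-Ctrl, and Junb with 73.8 in the libraries labelled Zhx1-KO and 239 in 46C-Ctrl. Neighbours down to Egr1 did not overlap in this order in either group. Egr1 had 25.2, 24.8 and 19.6 normalized counts per kb in the libraries labelled Zhx1-KO, above every value of Fos and Fosl2 there, and 76.1, 71.6 and 75.7 in 46C-Ctrl, where it overlapped with Fos. The levels of Fos and Fosl2 overlapped within both groups: per kb, Fos had 12, 9.46 and 17.2 and Fosl2 14.2, 15.8 and 17.1 in the libraries labelled Zhx1-KO, and Fos had 75, 51.9 and 62.3 and Fosl2 57.6, 50.2 and 56.8 in 46C-Ctrl.

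Summed per family, the Egr genes had 29.6 ± 4.62 normalized counts per kb in the libraries labelled Zhx1-KO and 95.2 ± 1.75 in 46C-Ctrl (SD, n = 3 each). The Fos genes had 30 ± 5.2 in the libraries labelled Zhx1-KO and 121 ± 17.2 in 46C-Ctrl. The Jun genes had 1214 ± 33.3 in the libraries labelled Zhx1-KO and 1899 ± 159 in 46C-Ctrl. The libraries labelled Zhx1-KO thus held 31.1% of the 46C-Ctrl level of Egr transcripts, 24.9% of that of Fos transcripts and 63.9% of that of Jun transcripts. These sums are descriptions and were not tested.

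The make-up of the families differed as well. Junb made up 4.95% to 7.2% of Jun family transcripts per kb in the libraries labelled Zhx1-KO, against 12.1% to 13.2% in 46C-Ctrl, and Jund made up 71.5% to 72.4% in the libraries labelled Zhx1-KO, against 63.4% to 65.7% in 46C-Ctrl. The share of Jun, 21.3% to 22.7% in the libraries labelled Zhx1-KO and 22% to 23.4% in 46C-Ctrl, overlapped. RefSeq gives Jund a longer transcript (2878 bases, against 1668 in GENCODE), and with RefSeq lengths the share of Junb was 8.74% to 12.6% with the Zhx1-KO label and 19.9% to 21.6% in 46C-Ctrl, and that of Jund 57.8% to 59.2% with the Zhx1-KO label and 47.9% to 50.4% in 46C-Ctrl. The share of Jun with RefSeq lengths, 29.6% to 32% with the Zhx1-KO label and 29.1% to 30.6% in 46C-Ctrl, again overlapped. The levels of these shares depended on the gene model, and for Junb and Jund their order between the groups was the same with both models. In the Fos family, Fos made up 35.2% to 47.8% in the libraries labelled Zhx1-KO, against 50.5% to 54.7% in 46C-Ctrl, while the share of Fosl2 overlapped (47.5% to 58.7% with the Zhx1-KO label, against 42% to 48.8% in 46C-Ctrl). In the Egr family, Egr3 made up 0% to 9.22% in the libraries labelled Zhx1-KO, against 18.1% to 23.4% in 46C-Ctrl. Egr2 went the other way, at 0% to 25.5% with the Zhx1-KO label and 0% to 2.28% in 46C-Ctrl, with overlap at 0, and the share of Egr1 overlapped, at 71.2% to 91.7% with the Zhx1-KO label, against 76.6% to 79.6% in 46C-Ctrl.

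**Figure D3:**
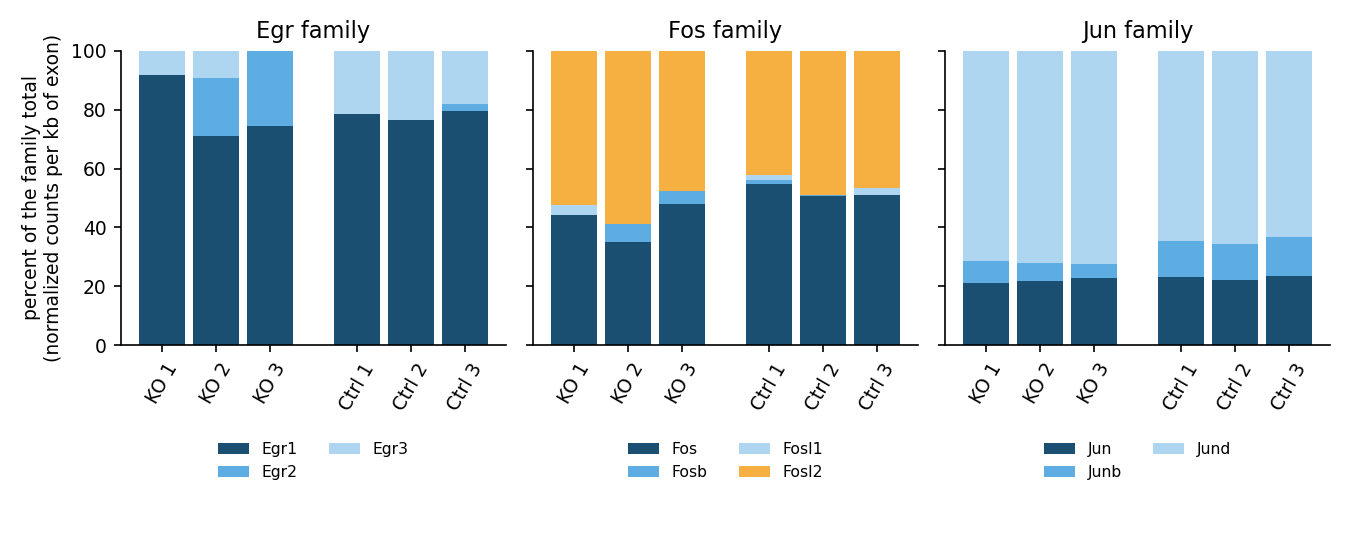
Share of each member in its family's total of normalized counts per kb of exon (percent, stacked bars), for the Egr, Fos and Jun families in each of the 3 libraries labelled Zhx1-KO (KO 1 to KO 3) and the 3 of 46C-Ctrl (Ctrl 1 to Ctrl 3). Junb takes at most 7.2% of the Jun total in the libraries labelled Zhx1-KO and at least 12.1% in 46C-Ctrl.

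Ratios between members within a library, taken here without a pseudocount, do not depend on its scaling, and 5 of them, chosen after the values were seen and so given without a test, show where members moved apart. With the Zhx1-KO label, the log2 ratio of Junb to Jund normalized counts was -2.85, -3.11 and -3.41, against -1.96, -1.94 and -1.79 in 46C-Ctrl, a difference of -1.22. For Junb over Jun the log2 ratios were -2.03, -2.33 and -2.67 in the libraries labelled Zhx1-KO and -1.41, -1.30 and -1.29 in 46C-Ctrl, again without overlap. Jun over Jund moved less, with a difference of -0.21. For Fos over Fosl2 the log2 ratios were -2.28, -2.78 and -2.03 in the libraries labelled Zhx1-KO and -1.66, -1.99 and -1.91 in 46C-Ctrl, a difference of -0.51 with the groups barely apart. Egr1 over Junb differed by 0.02 and overlapped, with -0.83, -0.64 and -0.61 in the libraries labelled Zhx1-KO and -0.73, -0.61 and -0.80 in 46C-Ctrl.

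**Figure D4:**
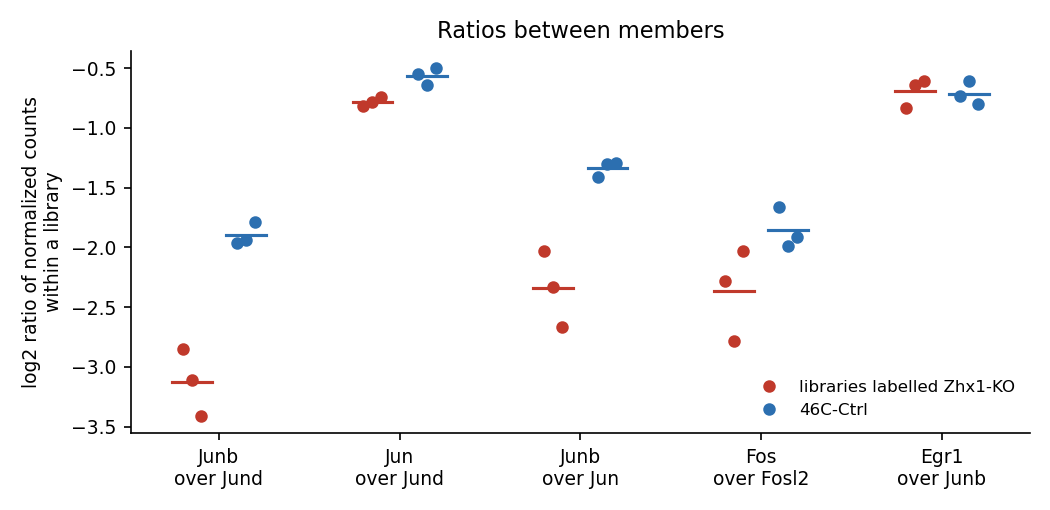
Log2 ratio of normalized counts of member pairs within each library (1 point per library, bars at group means; libraries labelled Zhx1-KO in red, 46C-Ctrl in blue). Junb over Jund differs most, by -1.22, and Egr1 over Junb overlaps between the groups.

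Genes with the pattern most like Egr1, Fos and Jun over the 6 libraries were found among tested genes with a mean of at least 100, by the root mean square distance between centred log2 values. For Egr1 they were Col3a1, a fibrillar collagen, at a distance of 0.0546, Ier5, itself an early-response gene, at 0.064, and Abca1, a cholesterol transporter, at 0.0716. Ier5 had 450, 492 and 400 normalized counts in the libraries labelled Zhx1-KO, against 1537, 1357 and 1490 in 46C-Ctrl. For Fos they were Irgm1, an interferon-induced GTPase (0.158), Plekha6 (0.172) and Rnf144b, a ubiquitin ligase (0.19). For Jun they were Hadhb, a subunit of the mitochondrial enzyme of fatty acid oxidation (0.021), Rab11fip1, an effector of the vesicle GTPase Rab11 (0.0359), and Wbp1l (0.0373). The 6 libraries share 2 groups, so a gene with a like group difference comes out as alike.

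Other early-response genes moved both ways. Of the 32 tested, 17 were called lower, 6 higher and 9 neither way, with a median log2 fold change of -0.57. Among the 17 was Ptgs2, with a mean of 1.01 in the libraries labelled Zhx1-KO. It passed the filter through 46C-Ctrl alone. The phosphatase gene Dusp1, whose product switches off JNK and p38, had 239, 229 and 246 normalized counts in the libraries labelled Zhx1-KO, against 606, 601 and 695 in 46C-Ctrl (log2 fold change -1.41, SE 0.09). Values in brackets after a gene are log2 fold changes here and below, and a gene said to have risen or fallen, or to be higher or lower, passed the limma test. Klf6 (-1.25), Rhob (-1.19), Btg2 (-0.76) and Ier5 (-1.71) fell too. Klf10, a Krüppel-like factor that TGF-β induces, rose to 1496, 1507 and 1430 in the libraries labelled Zhx1-KO, against 845, 835 and 781 in 46C-Ctrl (log2 fold change 0.85, SE 0.06). Atf3, a stress-induced partner of Jun, had 153, 139 and 134 in the libraries labelled Zhx1-KO and 140, 123 and 156 in 46C-Ctrl, with a log2 fold change of 0.02 (SE 0.14, limma adjusted p = 0.9). Ier2, another gene of the rapid response, named after its values were seen, had 1195, 1229 and 1320 in the libraries labelled Zhx1-KO and 1255, 1297 and 1223 in 46C-Ctrl (log2 fold change -0.01, SE 0.06).

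Among 11 other proteins of the bZIP class that can pair with Fos or Jun, 6 were called lower and 1 higher. The small Maf gene Maff, whose product can pair with Fos proteins, had 201, 144 and 165 normalized counts in the libraries labelled Zhx1-KO, against 736, 739 and 803 in 46C-Ctrl (log2 fold change -2.17, SE 0.13). Its relatives Maf (-1.83) and Mafk (-1.31) and the repressor of AP-1 Jdp2 (-1.17) were also lower. Batf, a Jun partner of lymphocytes, was the gene called higher, at 37.3, 48.5 and 30.8 in the libraries labelled Zhx1-KO, against 12.7, 10.4 and 14.8 in 46C-Ctrl (log2 fold change 1.54, SE 0.31).

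Upstream of the members, SRF and its partners were measured together with the CREB family. Of 10 tested, 6 were called lower and 2 higher. Srf had 1295, 1465 and 1280 normalized counts in the libraries labelled Zhx1-KO, against 2360, 1957 and 2132 in 46C-Ctrl (log2 fold change -0.67, SE 0.08, limma adjusted p = 0.00041). Its coactivators Mrtfa (-0.49) and Mrtfb (-0.35), and Creb3 (-0.98) and Atf1 (-0.30), were lower too. Elk3, a ternary complex factor that can repress, rose, with 602, 576 and 545 in the libraries labelled Zhx1-KO, against 283, 215 and 246 in 46C-Ctrl (log2 fold change 1.22, SE 0.11). Creb1, named after its values were seen, was the other gene called higher. It had 1511, 1500 and 1548 in the libraries labelled Zhx1-KO, against 1307, 1387 and 1267 in 46C-Ctrl (log2 fold change 0.20, SE 0.05, limma adjusted p = 0.0158). Only 1 gene of this list was called higher without replicate 3 of the libraries labelled Zhx1-KO, and likewise without 46C-Ctrl 3.

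Transcripts of the kinase cascades that induce the members moved both ways. Of 19 genes of the ERK cascade, 9 were called lower and 4 higher, with a median log2 fold change of -0.27; Hras (-0.80), Braf (-0.54) and Rps6ka2 (-0.48) were lower, and the adaptor Grb2 (0.41) was higher. Of 17 genes of the JNK and p38 cascades, 4 were called lower and 8 higher, with a median of 0.30. The p38 kinase kinase Map2k6 had 884, 959 and 922 normalized counts in the libraries labelled Zhx1-KO, against 367, 300 and 327 in 46C-Ctrl (log2 fold change 1.48, SE 0.09). Mapk12 (1.22), Mapk8 (0.91) and Mapk8ip1 (0.76) also rose, while the phosphatase genes Dusp8 (-1.48) and Dusp16 (-0.90) fell. The p38 kinase gene Mapk14, named after its values were seen, fell as well. It had 1398, 1655 and 1501 in the libraries labelled Zhx1-KO, against 2542, 2144 and 2433 in 46C-Ctrl (log2 fold change -0.64, SE 0.09). These are transcript levels, and no kinase activity was measured.

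Genes that ERK signalling induces and that feed back on it were mostly lower, in 10 of 13 cases, and 3 were called higher, with a median of -0.90. Those 3, named after their values were seen, were Spred2 (0.35) and the ERK phosphatase genes Dusp7 (1.00) and Dusp4 (0.33). Dusp9, an ERK phosphatase, had 513, 473 and 437 normalized counts in the libraries labelled Zhx1-KO, against 3156, 3045 and 3202 in 46C-Ctrl (log2 fold change -2.72, SE 0.07). Dusp6, another ERK phosphatase, had 1094, 1072 and 1091 in the libraries labelled Zhx1-KO, against 1937, 1882 and 1797 in 46C-Ctrl (log2 fold change -0.78, SE 0.05). The ETS factors Etv5 (-2.37) and Etv4 (-2.06) and the ERK pathway inhibitors Spry4 (-2.63) and Spred3 (-1.64) fell. The corepressors that bind Egr proteins were lower as well. Nab1 had 362, 351 and 412 in the libraries labelled Zhx1-KO, against 882, 853 and 962 in 46C-Ctrl (log2 fold change -1.26, SE 0.09). Nab2, which Egr proteins also induce, had 346, 341 and 310 in the libraries labelled Zhx1-KO, against 374, 494 and 502 in 46C-Ctrl (log2 fold change -0.45, limma adjusted p = 0.02), a call that was lost without replicate 3 of the libraries labelled Zhx1-KO (-0.40) and without 46C-Ctrl 2 (-0.38) or 3 (-0.37).

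Downstream, 8 of 14 tested genes known as AP-1 targets were called lower and 2 higher. Of these 2, Sphk1 had a mean of 9.5 in 46C-Ctrl and passed the filter through the libraries labelled Zhx1-KO alone. Plaur, the urokinase receptor, had 33.3, 37.4 and 37 normalized counts in the libraries labelled Zhx1-KO, against 377, 351 and 372 in 46C-Ctrl (log2 fold change -3.32, SE 0.13). Mmp9, a matrix metalloproteinase, had 7.05, 23.3 and 13.2 in the libraries labelled Zhx1-KO, against 162, 140 and 135 in 46C-Ctrl (log2 fold change -3.38, SE 0.39). The growth factor gene Hbegf (-2.01), the intermediate filament gene Vim (-1.11), the hyaluronan receptor gene Cd44 (-1.05) and the heme oxygenase gene Hmox1 (-0.34) fell. Of 9 tested genes known as Egr targets, 6 were called lower and none higher, among them the tissue factor gene F3 (-1.23), Icam1 (-1.19), Pdgfa (-0.43) and Tgfb1 (-0.44). Cd44, Nab2 and Tgfb1 also stand in other lists, and the call of Tgfb1 was lost when replicate 3 of the libraries labelled Zhx1-KO (-0.36), 46C-Ctrl 1 (-0.38) or 46C-Ctrl 3 (-0.38) was left out.

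**Figure D5:**
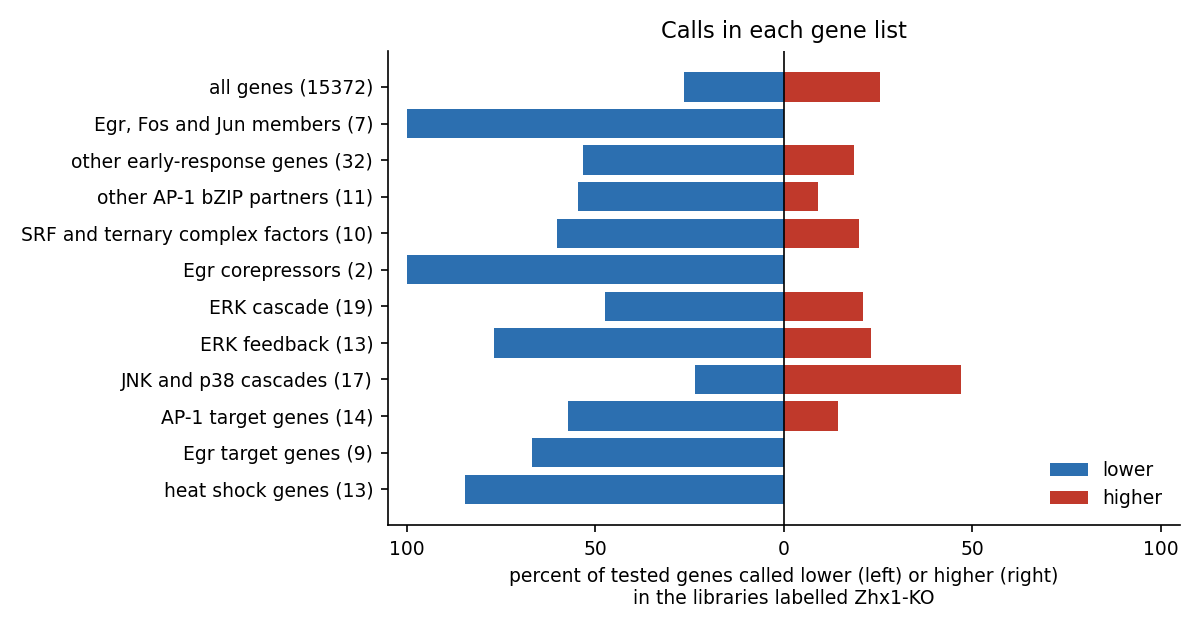
Percent of tested genes called lower (left) and higher (right) in the libraries labelled Zhx1-KO, for all genes and for each list of the pathway, with the number of genes tested in brackets. For all genes the bars reach 26.4% lower and 25.6% higher; 7 of 7 tested members (Egr3 having passed the filter only through 46C-Ctrl), 10 of 13 ERK feedback genes and 4 of 17 JNK and p38 genes were called lower.

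Markers of stress and of cell types also differed between the groups, those of cell types in both directions. Of 13 heat shock genes, 11 were called lower and none higher, and their summed normalized counts ranged from 124368 to 129626 in the libraries labelled Zhx1-KO and from 147115 to 154047 in 46C-Ctrl. Hspb1, a small heat shock protein gene, had 248, 280 and 301 in the libraries labelled Zhx1-KO, against 2029, 1779 and 2187 in 46C-Ctrl. Hspa5 (-0.96), Hsph1 (-0.90), Bag3 (-1.17), Hspd1 (-0.58) and Dnaja1 (-0.53), which encode chaperones and a cochaperone, were lower too. The abundant chaperone genes Hsp90aa1 (-0.07) and Hsp90ab1 (-0.04), named after their values were seen, did not pass the test, except that with quantile normalization they were called lower (-0.17 and -0.11).

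The CP markers summed to between 1081 and 1159 normalized counts in the libraries labelled Zhx1-KO and between 7770 and 8527 in 46C-Ctrl, with 5 of 6 called lower. Hand1 led this list, with 177, 186 and 230 in the libraries labelled Zhx1-KO, against 6036, 5405 and 5881 in 46C-Ctrl, and the heart transcription factor genes Hand2 (-2.52) and Tbx5 (-4.48) followed. Tbx5, with a mean of 1.93 in the libraries labelled Zhx1-KO, passed the filter through 46C-Ctrl alone, as Egr3 did. Isl1 (-0.23, limma adjusted p = 0.311) was not called. All 8 primitive streak markers were called lower. Their sums ranged from 513 to 530 in the libraries labelled Zhx1-KO and from 6469 to 6533 in 46C-Ctrl. Among them Mixl1 and Mesp1, with means of 1.98 and 5.96 with the Zhx1-KO label, also passed the filter through 46C-Ctrl alone. Eomes, a transcription factor gene of the streak (-7.42), and the ligand genes Nodal (-4.98) and Wnt3 (-4.27) had the smallest adjusted p-values. Endoderm markers were lower in 8 of 10 cases and higher in 1. Their sums were 14029 to 15555 in the libraries labelled Zhx1-KO and 38073 to 43626 in 46C-Ctrl. Among those lower were Krt8 (-1.73), Apob (-3.78) and Gata4 (-4.07), which is also a heart gene. Krt8 and Krt18, with means of 24023 and 12691 in 46C-Ctrl, made up most of the sums there. Afp, another of the 8 lower, had a mean of 1.64 with the Zhx1-KO label and passed the filter through 46C-Ctrl alone.

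Markers of most other lineages were higher. Endothelial markers were so in 7 of 10 cases and lower in 2 (sums of 4614 to 5016 in the libraries labelled Zhx1-KO and 3315 to 3614 in 46C-Ctrl), with the cadherin gene Cdh5 (3.12) and the VEGF receptor gene Kdr (1.72) higher and the VEGF receptor gene Flt1 (-2.32) lower. Among the 7 was Emcn, with a mean of 0.677 in 46C-Ctrl. It passed the filter through the libraries labelled Zhx1-KO alone. Neural markers were higher in 7 of 9 tested cases and lower in 1 (3904 to 4028 with the Zhx1-KO label and 2862 to 3279 in 46C-Ctrl). The forebrain factor gene Six3 (6.20), Sox1 (3.74) and the tubulin gene Tubb3 (1.73) rose, and Pax6 was listed at 0 in every 46C-Ctrl library. Six3, with a mean of 7.51 in 46C-Ctrl, passed the filter through the libraries labelled Zhx1-KO alone, as did Pax6. Hesx1 and Lmx1a, also called higher, had means of 5.47 and 1.73 in 46C-Ctrl and passed in the same way. All of these could be called only higher. Nes (-0.76), the neural marker called lower, had a mean of 1652 with the Zhx1-KO label and 2804 in 46C-Ctrl. It made up most of the neural sums in 46C-Ctrl. Fibroblast markers were higher in 6 of 8 cases and lower in 1 (5768 to 6205 with the Zhx1-KO label and 3990 to 4437 in 46C-Ctrl), with Lum (3.79) and Thy1 (1.99) higher and Col3a1 (-1.69) lower. Of 6 tested blood markers, 3 were lower and 2 higher (409 to 425 with the Zhx1-KO label and 691 to 864 in 46C-Ctrl), among them Runx1 (-3.78), Hbb-bh1 (-1.85) and Tal1 (1.68), with Ptprc listed at 0 in 5 of the 6 libraries. The part that these differences in cell types and heat shock genes have in the levels of the Egr, Fos and Jun genes was not tested.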

How the data were processed

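RNA-seq libraries of CP cells (3 labelled Zhx1-KO, 3 of 46C-Ctrl) were analysed. Per the study, adapters were removed with cutadapt, and HISAT2 2.1.0 placed the reads on GRCm38 by strand. The submitters' processing notes also name StringTie 1.3.4d, Cufflinks and DESeq2; the sources used here do not give the counting program. The deposited values are a signal per gene, which the authors made from gene counts by dividing each library by a factor of its own: 100% of the values are whole multiples, within 0.01, of a step of 0.880 to 1.05 per library. FPKM and ChIP-seq data were not used here.

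Genes with a mean of at least 10 were tested with limma 3.58.1 (R 4.3.3, mean trend, group as the only term) on log2(value + 1), with Benjamini-Hochberg adjustment over the 15372 genes tested. Lists are described by counts and medians. Members and lists were chosen with earlier results of these data known. The genes named are Zhx1, the 10 members, for each other list up to 6 tested genes (cell type lists up to 3) with the smallest adjusted p plus Srf, Atf3, Nab1, Nab2 and Dusp6, and the 3 genes most like Egr1, Fos and Jun. Some genes under this rule are not reported here. Ier2, Hsp90aa1, Hsp90ab1, Pax6, Ptprc, Isl1, Krt18, Nes, Mixl1, Mesp1, Ptgs2, Afp, Sphk1, Emcn, Hesx1 and Lmx1a were added after their values were seen. So were Mapk14, Creb1, Dusp4, Dusp7 and Spred2. A gene with a mean under 10 in 1 group passed the filter through the other group alone and could be called only 1 way. Besides Egr3, such genes of the lists included Ptgs2, Mesp1, Mixl1, Tbx5, Afp, Sphk1, Emcn, Pax6, Six3, Hesx1 and Lmx1a. Exon lengths and positions are from GENCODE (GRCm38), promoters from RefSeq; protein sequences were not used here. In data simulated for this comparison over 15372 genes, 72 of 100 genes changed 2-fold, 40 of 100 changed 1.5-fold and 6 of 15172 unchanged genes were called. Far fewer genes were changed in the simulation than were called in the data, so these rates may not carry over. Alternatives covered the pseudocount, the filter, quantile and TMM scaling, limma without trend, a 2-fold threshold, the replicate number as a block and each library left out.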

Additional observations from a re-analysis of the deposited data

How the results depend on the processing

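The 7 tested members stayed lower and past the threshold in each alternative fit that tested them; with a mean of at least 50 required, Egr3 was not tested and 6 remained. With a 2-fold threshold added, 5 members were called lower, and over all genes 1493 were called higher and 1207 lower, against 3940 and 4058 without it; in the pathway lists 7 were higher and 35 lower, against 26 and 76, because the rule asks for larger changes. With libraries left out in turn, 3185 to 3787 genes were higher and 3460 to 3873 lower, members called lower stayed at 7, members called higher ranged from 0 to 1 (Egr2, without replicate 1 of the libraries labelled Zhx1-KO), and pathway list genes called ranged from 21 to 23 higher and 71 to 75 lower. Both groups carry replicate numbers 1 to 3, but deviations of same-numbered libraries correlated by 0.004, -0.069 and 0.001, so they were not taken as pairs; with the replicate block, 3625 genes were higher and 3749 lower, 7 members were lower and 0 higher, and 24 and 74 pathway list genes were called. Over single members and list genes, 1919 values kept their side of the threshold, 67 lost the call, 18 gained it and no call turned to the other direction. Count tests with edgeR and DESeq2 had been listed and were not run. The values were whole multiples of a step in every library, but the set rule did not accept steps near 1 as whole reads. Such steps were those of replicates 1 and 2 of the libraries labelled Zhx1-KO (1.008 and 1.011). Egr2, Fosb and Fosl1 were too low for the filter and disagreed between replicates, and with 3 libraries per group no permutation p can fall below 0.1.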
